A study of Mus musculus with 4 samples.

Results

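Intraepithelial lymphocytes (IELs), T cells lodged between the epithelial cells of the gut, were compared between a γδ and an αβ sort from the colon of mice labelled Tcf7KO. The comparison took all cells of the TCRγδ Tcf7KO library against all cells of the TCRβ Tcf7KO library, leaving out epithelial cells. A cell was counted as epithelial when its UMIs (unique molecular identifiers, each a captured transcript) of Krt8, Krt19, Pigr and Epcam summed to 10 or more. This left 1491 of 1511 TCRγδ cells and 5782 of 5785 TCRβ cells, 7273 of the 16787 cells in the series. The highest sum kept was 8 and the lowest left out was 42 in the TCRγδ library, and the same sums were 7 and 165 in the TCRβ library, so few cells lay near the limit.

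Both groups were sorted as live CD3+ CD8alpha+ cells, with TCRbeta in one and, by the cell type label, TCRgamma in the other, here taken as TCRγδ from the titles. The labels give all libraries the strain E8IcreTcf7fl/fl, in which the E8I enhancer of the Cd8a locus drives Cre and Tcf7 is floxed. Only the genotype label tells Tcf7KO from Tcf7WT, and both groups compared here are Tcf7KO. The labels give no age, no number of animals and no treatment. A Tcf7WT library of each sort, with 1870 TCRγδ and 7592 TCRβ cells after the same step, shows the same contrast where Tcf7 was labelled intact. Each group was 1 library. No difference between groups could be tested, and every interval below covers counting error only.

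TCF-1, the product of Tcf7, is a DNA-binding factor that keeps naive and memory T cells quiescent and able to renew themselves. Most γδ IELs and many αβ IELs carry CD8α without CD8β, live in the epithelium for long periods and hold granzymes ready for release. Granzymes are serine proteases that enter target cells with the help of perforin and start their death.

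The kept cells gave 6740143 UMIs in the TCRγδ and 18262777 UMIs in the TCRβ library. The median cell had 4352 and 2860 UMIs. Levels are given in CPM (counts-per-million, the gene's UMIs over all UMIs of the library). Shares of cells were taken after thinning every cell to 1699 UMIs, which kept 1461 TCRγδ and 5204 TCRβ cells and left out 30 and 578 shallower ones. Both libraries shared 2 cell barcodes. Epithelial cells had held 6.19% of all UMIs of the TCRγδ library and 0.595% of those of the TCRβ library. In the kept cells, epithelial markers summed to 280 and 214 CPM with none of 18 at 0 in the TCRγδ library, myeloid markers (4 listed) to 44.4 and 20.9 CPM, and B and plasma cell markers to 227 and 317 CPM. CD4 and regulatory T cell markers summed to 88.1 and 122 CPM. Of 12 measured epithelial markers, 5 were at least 2-fold higher in the TCRγδ library, and so were 3 of 4 myeloid markers. Among all 11960 genes with at least 20 UMIs, 3.64% were higher. Counts of genes with cells holding such markers left out are given below, but the part of this RNA in the results was not tested. Epcam made up most of the epithelial sum, at 207 CPM in the TCRγδ and 171 CPM in the TCRβ library, while Krt8 stood at 9.50 and 3.12 CPM.

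Among the receptor constant genes, 2 of 4 γδ genes were at least 2-fold higher in TCRγδ cells and 1 of 3 αβ genes was at least 2-fold lower. Among all genes with at least 20 UMIs, 3.64% were higher and 5% lower. Trdc, the constant region of the δ chain, stood at 2030 CPM in the TCRγδ and 14.8 CPM in the TCRβ library and was found in 93.8% and 1.65% of thinned cells. Trac, the constant region of the α chain, was the less separate gene, at 421 and 908 CPM and in 44.6% and 72.5% of thinned cells. Before thinning, 71.3% of TCRγδ cells held a Trac UMI. Tcrg-C1 stood at 443 and 72.3 CPM, while Tcrg-C2 (74.8 and 66.4 CPM) and Tcrg-C4 (31.0 and 29.0 CPM) were within 2-fold. The β chain constant genes Trbc1 (932 and 837 CPM) and Trbc2 (1159 and 1845 CPM) were within 2-fold, with Trbc1 the higher in TCRγδ cells. Trgv2 (231 CPM) had the most UMIs of the γ variable segments of the TCRγδ library, and Trdv5 (35.9 CPM) of its δ segments. Trgv2 stood at 288 CPM in the TCRβ library and so did not separate the sorts, whereas Trdv5 had 3 UMIs there. Cd8a, which every sorted cell should carry, stood at 1863 and 1391 CPM. Cd8b1, which encodes CD8β, had 3 UMIs in the TCRγδ and 1778 UMIs in the TCRβ library, a log2 ratio of -7.77 (95% interval -10.05 to -6.22). A Cd8b1 UMI was found in 638 of the 5782 TCRβ cells, so CD8β was not detectable in most of them at this depth.

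Tcf7 itself was counted in both libraries. It stood at 15.4 CPM in TCRγδ Tcf7KO and 108 CPM in TCRβ Tcf7KO, against 46.4 and 149 CPM in the Tcf7WT libraries of the same sorts. The order of the sorts was thus the same in both genotypes, with Tcf7KO below Tcf7WT in each. Among Tcf7KO cells, 2.81% of TCRγδ and 16.4% of TCRβ thinned cells held a Tcf7 UMI. The log2 ratio between sorts was -2.80 (-3.10 to -2.52) in Tcf7KO and -1.68 in Tcf7WT. The kit reads the 3′ end of transcripts, and the labels do not say which exons the Cre removes, so these UMIs may come from outside the deleted part and do not by themselves check the deletion.

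Across the 9988 genes listed in both Tcf7KO libraries with 100 or more UMIs, 217 were at least 2-fold higher in TCRγδ cells (2.17%) and 285 at least 2-fold lower (2.85%), together 502 (5.03%). The median log2 ratio of all 9988 genes was -0.09. Receptor segments were 10 of the higher and 5 of the lower genes. Before epithelial cells were left out, 16 of the higher and 17 of the lower genes had 20% or more of their UMIs in them. Among the 2090 genes that reached 100 CPM in the higher library, 38 were higher and 27 lower. The Tcf7WT sorts, measured in the same way, gave 256 higher (2.51%) and 223 lower genes (2.19%). A further 13 genes with 100 or more UMIs were listed for the TCRβ Tcf7KO library and not for the TCRγδ library. They include the haemoglobin gene Hbb-b1 (1183 UMIs in TCRβ cells), Myl1 (1035), Ly6c2 (871), S100a4 (815) and Cd5 (253). They have no ratio here because the sources do not say how listed genes were picked.

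The granzyme genes Gzma and Gzmb were among the 15 genes with the highest ratios. Gzma (chromosome 13, 113093825 to 113100981, GRCm38) encodes the tryptase granzyme A, and Gzmb (chromosome 14, 56258838 to 56262260) encodes granzyme B, which cuts after aspartate and triggers caspases. Their promoters are shown because both genes stood far apart between the sorts, had high counts and were found together in the same cells. Each line holds the 250 bases before the RefSeq start (GRCm38.p6, minus strand, chr13:113100982-113101231 and chr14:56262335-56262584), and capitals mark matches to a Runx motif (TGTGGT) or an AP-1 motif (TGANTCA) on either strand.
Gzma: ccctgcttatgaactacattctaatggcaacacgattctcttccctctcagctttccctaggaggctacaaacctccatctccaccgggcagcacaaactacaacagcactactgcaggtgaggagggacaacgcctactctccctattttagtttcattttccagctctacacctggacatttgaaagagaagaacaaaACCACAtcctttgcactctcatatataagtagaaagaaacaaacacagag
Gzmb: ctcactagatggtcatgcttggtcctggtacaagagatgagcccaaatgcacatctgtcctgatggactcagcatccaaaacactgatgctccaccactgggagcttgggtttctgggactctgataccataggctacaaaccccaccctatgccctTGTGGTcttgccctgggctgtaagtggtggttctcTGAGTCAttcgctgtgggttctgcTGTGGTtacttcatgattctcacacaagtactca
The Gzma window held 1 Runx match, 50 to 45 bases before the start. The Gzmb window held 2 Runx matches, 93 to 88 and 34 to 29 bases before the start, and 1 AP-1 match 58 to 52 bases before it. The RefSeq start of Gzmb lies upstream of the gene span given above, and the bases between them were not searched. A Runx match was present in 14.0% and an AP-1 match in 6.75% of all 32851 promoter windows of this length. Neither window held a T-box motif (AGGTGTG, 5.10% of windows) or a TCF/LEF motif (CTTTGNT, 16.0% of windows), the kind TCF-1 binds. These are matches of letters, not binding sites, and binding was not measured.

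Gzma stood at 20174 CPM in TCRγδ and 4502 CPM in TCRβ Tcf7KO cells, a 4.48-fold difference (log2 ratio 2.16, 2.15 to 2.18). In the Tcf7WT libraries it stood at 12683 and 1666 CPM, so both Tcf7KO libraries were above their Tcf7WT counterparts. Gzmb stood at 8324 and 2556 CPM, 3.26-fold apart (log2 ratio 1.70, 1.69 to 1.72), against 5245 and 883 CPM in Tcf7WT. The sort ratio of both granzymes was smaller in Tcf7KO than in Tcf7WT, by 0.76 for Gzma and 0.87 for Gzmb on the log2 scale. For both genes, TCRγδ Tcf7KO was the highest of the 4 libraries and TCRβ Tcf7WT the lowest.

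The granzymes differed both in how many cells held them and in how much a cell held. After thinning, 82.1% (exact binomial 95% interval 80.1 to 84.1) of TCRγδ Tcf7KO cells held UMIs of both Gzma and Gzmb, against 22.7% (21.5 to 23.8) of TCRβ Tcf7KO cells. Cells with neither granzyme made up 4.38% and 46.7%. In Tcf7WT, 57.3% of TCRγδ and 7.75% of TCRβ thinned cells held both, so each sort had more such cells in its Tcf7KO library. The median thinned TCRγδ cell had 35 UMIs of Gzma and 13 of Gzmb, and the median TCRβ cell had 0 of each. At the 90th percentile the values were 65 and 31 UMIs for Gzma and 27 and 13 for Gzmb. The distributions thus overlapped, with the 90th percentile of TCRβ cells near the median TCRγδ cell for Gzma. Of the 20 epithelial cells left out of the TCRγδ library, 1 held a Gzma UMI at this depth. Unthinned shares of cells with Gzma were 88.2% and 32.5%.

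**Figure D1:**
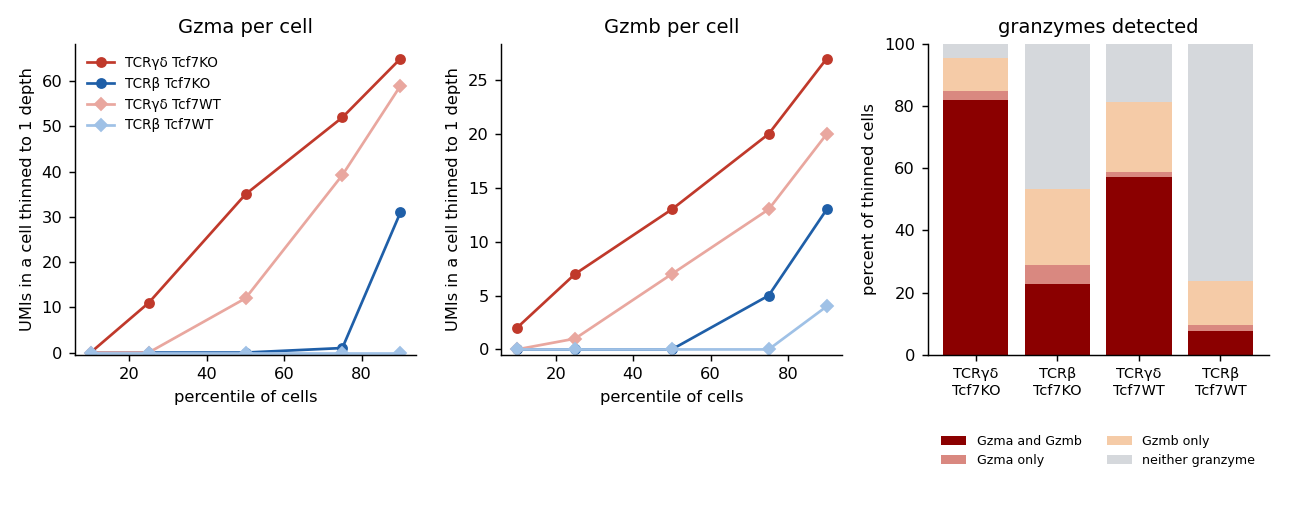
Granzyme UMIs per cell in the 4 libraries after each cell was thinned to 1699 UMIs: the first panels plot UMIs of Gzma and Gzmb against the percentile of cells, and the bars give the percent of thinned cells with both, either or neither granzyme. The median TCRγδ Tcf7KO cell has 35 Gzma UMIs and the median TCRβ Tcf7KO cell has 0, and the 90th percentile of TCRβ Tcf7KO is 31.

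Of 6 measured granule proteases and perforin, 3 were at least 2-fold higher and 1 lower in TCRγδ cells. Among all 11960 genes with at least 20 UMIs, 3.64% were higher and 5% lower. Gzmc, a granzyme of strongly activated killer cells, stood at 93.6 and 38.5 CPM (log2 ratio 1.28, 1.12 to 1.44). Prf1, which encodes perforin, stood at 22.1 and 17.7 CPM, less than 2-fold apart. Gzmm was the lower member, on 8 and 63 UMIs. Gzmk, a granzyme of memory-like T cells, had 6 and 29 UMIs (log2 ratio -0.83), while in Tcf7WT it had 200 and 49 UMIs (3.76). Among 15 genes of the granule matrix and of granule protease inhibitors, 1 was higher and none lower (3.64% and 5% among all genes). Their median was 0.43. The higher gene was Serpina3g, an intracellular protease inhibitor, at 680 and 276 CPM. Srgn, the proteoglycan that packs granzymes, stood at 1994 and 1521 CPM.

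The other genes among the 15 highest ratios had lower counts. Plek (pleckstrin, a protein kinase C substrate of blood cells) stood at 111 and 16.9 CPM and had the highest ratio of the ranking, 2.72. Capg, which caps actin filaments, stood at 156 and 26.4 CPM (2.56). Of 15 measured actin severing and capping genes it was the 1 higher, and 1 was lower. Among all genes 3.64% were higher and 5% lower. Tnfrsf9 encodes 4-1BB, a costimulatory receptor of the TNF receptor family. It stood at 596 and 124 CPM, 4.82-fold apart, and was found in 51.1% of TCRγδ and 12.7% of TCRβ thinned cells. Arrdc4, an arrestin-like protein that limits glucose uptake, stood at 260 and 56.8 CPM (2.19). Lgals3, which encodes galectin-3, stood at 516 and 186 CPM (1.47) and was found in 49.6% and 17.5% of thinned cells. Cd200r2, a member of the CD200 receptor family, stood at 404 and 136 CPM (1.57), and Irs2, an adaptor of insulin receptor signalling, at 135 and 46.3 CPM (1.54). C1qtnf6, Napsa, Itih5, Asb2, Klra5 and Lilr4b completed the 15, with ratios from 1.41 to 1.87. Lgals3 was also found in 60% of the 20 epithelial cells left out of the TCRγδ library. Its log2 ratio was 1.52 with an epithelial limit of 3 UMIs and 1.71 with no cell left out. The part of epithelial RNA in its difference was not tested.

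**Figure D2:**
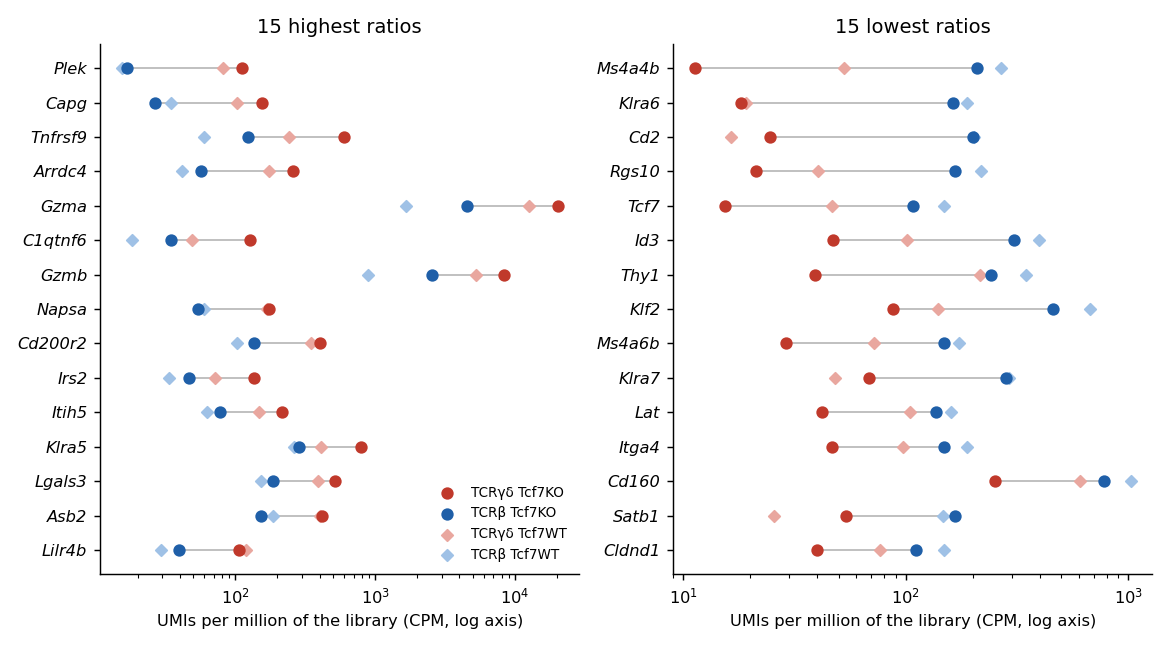
Levels in CPM on a log axis of the 15 genes with the highest and the 15 with the lowest TCRγδ over TCRβ ratio among Tcf7KO cells, in each of the 4 libraries. Grey lines join the Tcf7KO libraries, from 16.9 to 111 CPM for Plek and from 209 down to 11.3 CPM for Ms4a4b.

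Adaptors and receptors of the natural killer type did not all differ in the same direction. The adaptor Tyrobp (DAP12), which carries an ITAM signalling motif for activating receptors, stood at 2408 CPM in TCRγδ and 982 CPM in TCRβ Tcf7KO cells (log2 ratio 1.29, 1.26 to 1.32) and was found in 93.5% and 53.6% of thinned cells. Fcer1g, the Fc receptor γ chain and a second ITAM adaptor, stood at 3064 and 2022 CPM (0.60). The CD3 chains Cd3d, Cd3e, Cd3g and Cd247 differed by 0.34 or less. Fcgr3, an activating Fc receptor that signals through such chains, stood at 61.1 and 26.2 CPM (1.22).

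Of 8 measured Ly49 receptors, the lectin-like receptors for MHC class I of mouse killer cells, 1 was at least 2-fold higher and 7 lower, with a median of -1.82. Among all genes 3.64% were higher and 5% lower. The higher member was Klra5, at 789 and 283 CPM (1.48, 1.42 to 1.54). Klra6 stood at 18.2 and 164 CPM (-3.16), Klra7 at 68.1 and 282 CPM (-2.05), and Klra1 at 8.01 and 43.8 CPM (-2.45). In thinned cells Klra5 was found in 55.0% and 20.8%, and Klra6 in 2.60% and 18.9%. The family thus split into 1 member higher in TCRγδ cells, though also found in TCRβ cells, and 7 members lower there. Ly49 genes are close copies of each other, and the sources used here do not say how reads shared between copies were counted, so the level of each member is uncertain. In Tcf7WT, Klra5 stood at 408 and 263 CPM, below 2-fold.

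Among 12 measured NKG2, CD94 and NKR-P1 receptors, 2 were higher and 2 lower, beside 3.64% higher and 5% lower among all genes. Klrb1c, which encodes NK1.1, stood at 181 and 85.4 CPM (1.08). Klrk1 encodes NKG2D, a receptor for stress ligands, and stood at 7.42 and 54.8 CPM (-2.88), against 37.6 and 73.5 CPM in Tcf7WT. Among 13 inhibitory receptors, 2 were higher and 2 lower, beside the same shares of all genes. Lag3 stood at 250 and 122 CPM (1.04) and Lilrb4a at 90.4 and 35.2 CPM (1.36). Pdcd1, which encodes PD-1, stood at 7.27 and 30.0 CPM (-2.04). Cd160, a GPI-anchored receptor of IELs, stood at 252 and 776 CPM (-1.62, -1.70 to -1.55) and was found in 26.7% and 65.3% of thinned cells.

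Of 17 measured transcription factors that hold T cells quiescent or serve memory cells, 10 were at least 2-fold lower in TCRγδ Tcf7KO cells and none higher, and the median was -1.62 beside -0.10 over the 11960 genes with at least 20 UMIs, of which 435 (3.64%) were at least 2-fold higher and 598 (5%) lower. Besides Tcf7 itself, Lef1, its close relative, had 20 and 910 UMIs (-4.07, -4.79 to -3.43). Klf2, which drives the genes for leaving tissue, stood at 87.7 and 461 CPM (-2.39), and Klf3, a related repressor, had 31 and 1443 UMIs (-4.10). Id3, an inhibitor of E proteins, stood at 47.3 and 307 CPM (-2.70), and Satb1, a chromatin organiser, at 54.0 and 166 CPM (-1.62). Foxo1 (197 and 179 CPM) and Ets1 (678 and 783 CPM) were close in both libraries. The Tcf7WT sorts also had 10 of 17 lower and none higher, with a median of -1.57. Cells with a UMI of Ccr7, S1pr1 or Lef1, genes of circulating T cells, made up 17.6% (1018) of TCRβ and 1.54% (23) of TCRγδ Tcf7KO cells. The ratios were taken again with these cells left out of both libraries. Klf2 stood at 1188 CPM in such TCRβ cells and at 282 CPM in the other TCRβ cells. Without them, 8 of 16 factors other than Lef1 were still lower, with a median of -1.14 in place of -1.35, and Klf2 moved from -2.39 to -1.77 (3.42-fold in place of 5.26-fold). Tcf7 (-2.62), Id3 (-2.71) and Klf3 (-3.79) moved less. Circulating cells in which no UMI of Ccr7, S1pr1 or Lef1 was captured stay in, so the part of circulating cells in these ratios was not tested.

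Effector and residency transcription factors showed no such common direction, with 2 higher and 2 lower of 18 and a median of 0.09. Among all genes 3.64% were higher and 5% lower. Zbtb16 (PLZF, a factor of innate-like T cells) stood at 13.8 and 1.64 CPM (3.07) and Prdm1 (Blimp-1, a factor of effector and resident T cells) at 66.6 and 19.8 CPM (1.75). Sox4 (2.52 and 29.4 CPM) and Irf4 (2.37 and 4.93 CPM) were the lower members. Tbx21, which encodes T-bet, stood at 87.2 and 72.3 CPM, Runx3 at 1078 and 1234 CPM, and Gata3 at 125 and 163 CPM.

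Genes of circulating T cells were also lower in TCRγδ cells, 7 of 10 measured and none higher, with a median of -2.08, beside 5% lower and 3.64% higher among all genes. The unequal share of cells with a UMI of Ccr7, S1pr1 or Lef1, 17.6% of TCRβ against 1.54% of TCRγδ cells, moves with this difference, and Ccr7 and S1pr1 are themselves members. Without those cells, 3 of the 6 other members that still had 20 UMIs were lower, with a median of -0.87 in place of -1.20. S1pr1, the receptor that draws T cells into blood and lymph, had 5 and 744 UMIs (-5.78, -7.41 to -4.55), and Ccr7, which brings them to lymph nodes, had 9 and 462 UMIs (-4.24). Il7r, the IL-7 receptor of naive and memory cells, had 23 and 841 UMIs (-3.75), and -2.75 without those cells.

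Of 12 members measured of the CD2, CD5, CD6 and CD28 group of T cell surface receptors, 5 were at least 2-fold lower, 7 were within 2-fold and none was higher, with a median of -0.76. Among all genes 5% were lower and 3.64% higher. Cd2, an adhesion and costimulatory receptor, stood at 24.6 and 200 CPM (-3.02, -3.25 to -2.80). Cd28, the main costimulatory receptor of T cells, had 13 and 1687 UMIs (-5.58) and Icos had 19 and 633 UMIs (-3.62). Cd48 (246 and 251 CPM) and Cd96 (320 and 273 CPM) hardly differed. Thy1, a GPI-anchored protein of T cells, stood at 39.2 and 241 CPM (-2.62, -2.80 to -2.44) and was found in 5.27% and 28.5% of thinned cells. All 3 measured MS4A genes were lower, beside 5% of all genes. Ms4a4b, a membrane protein that modulates T cell activation, had the lowest ratio of the ranking, at 11.3 and 209 CPM (18.6-fold, log2 ratio -4.21, -4.56 to -3.89), and Ms4a6b stood at 29.1 and 149 CPM (-2.36). Integrin α4 (Itga4) stood at 46.4 and 149 CPM (-1.68), and Itgal, the α chain of LFA-1, at 6.68 and 51.5 CPM (-2.95). Itgae, the αE chain that binds epithelial cadherin, stood at 609 and 456 CPM (0.42).

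Of 24 measured proximal signalling genes of the receptor, 4 were lower and none higher, with a median of -0.13 beside -0.10 for all genes, of which 5% were lower. Lat, the scaffold phosphorylated after receptor triggering, stood at 42.0 and 137 CPM (-1.71, -1.89 to -1.53), and Lat2, a related scaffold, at 288 and 157 CPM (0.88). The kinases Lck (558 and 620 CPM) and Zap70 (402 and 316 CPM) were within 2-fold. Themis, Sit1 and Lax1 were the other lower members. Rgs10, which turns off G-protein signals, stood at 21.2 and 166 CPM (-2.97), and Cldnd1 at 39.8 and 112 CPM (-1.49).

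Cytokine receptors and secreted products differed gene by gene. Il2rb, the shared β chain of the IL-2 and IL-15 receptors, stood at 683 and 318 CPM (1.10), while Il18r1 stood at 2.67 and 20.4 CPM (-2.94). Of 5 measured chemokines 1 was at least 2-fold higher, beside 3.64% of all genes. This was Ccl4 (551 and 238 CPM, 1.21). Ccl5 (24553 and 12643 CPM, 0.96) was just below 2-fold, and Xcl1 stood at 2005 and 1764 CPM. Ltb, lymphotoxin β, stood at 205 and 435 CPM (-1.09). Fasl stood at 212 and 182 CPM. Ifng, the main type 1 cytokine, stood at 30.9 and 51.7 CPM (-0.75) and was found in 3.63% and 4.65% of thinned cells. Fas, a death receptor, had 8 and 240 UMIs (-3.47).

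Several groups showed no member at least 2-fold apart in either direction, or about the share seen among all genes (3.64% higher and 5% lower). Those with none were the 8 GIMAP GTPases, the 20 MHC class I and peptide loading genes, the 21 cholesterol and lipid genes and the 14 heat shock genes. The heat shock genes still had a median of -0.43, led by Hspa1a (1866 and 3179 CPM, -0.77). Of 29 cell cycle genes 1 was lower, and of 40 genes of oxidative phosphorylation 1 was higher. The TGF-β pathway held 1 lower gene of 14, Smad3 (4.01 and 19.2 CPM, -2.26). MHC class II genes were outside these groups, with 3 higher and 2 lower of 9 measured and a median of 0.74. Their levels summed to 66.2 and 42.4 CPM. Cd74 had 90 and 21 UMIs, but 80 of the 90 came from 1 TCRγδ cell.

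**Figure D3:**
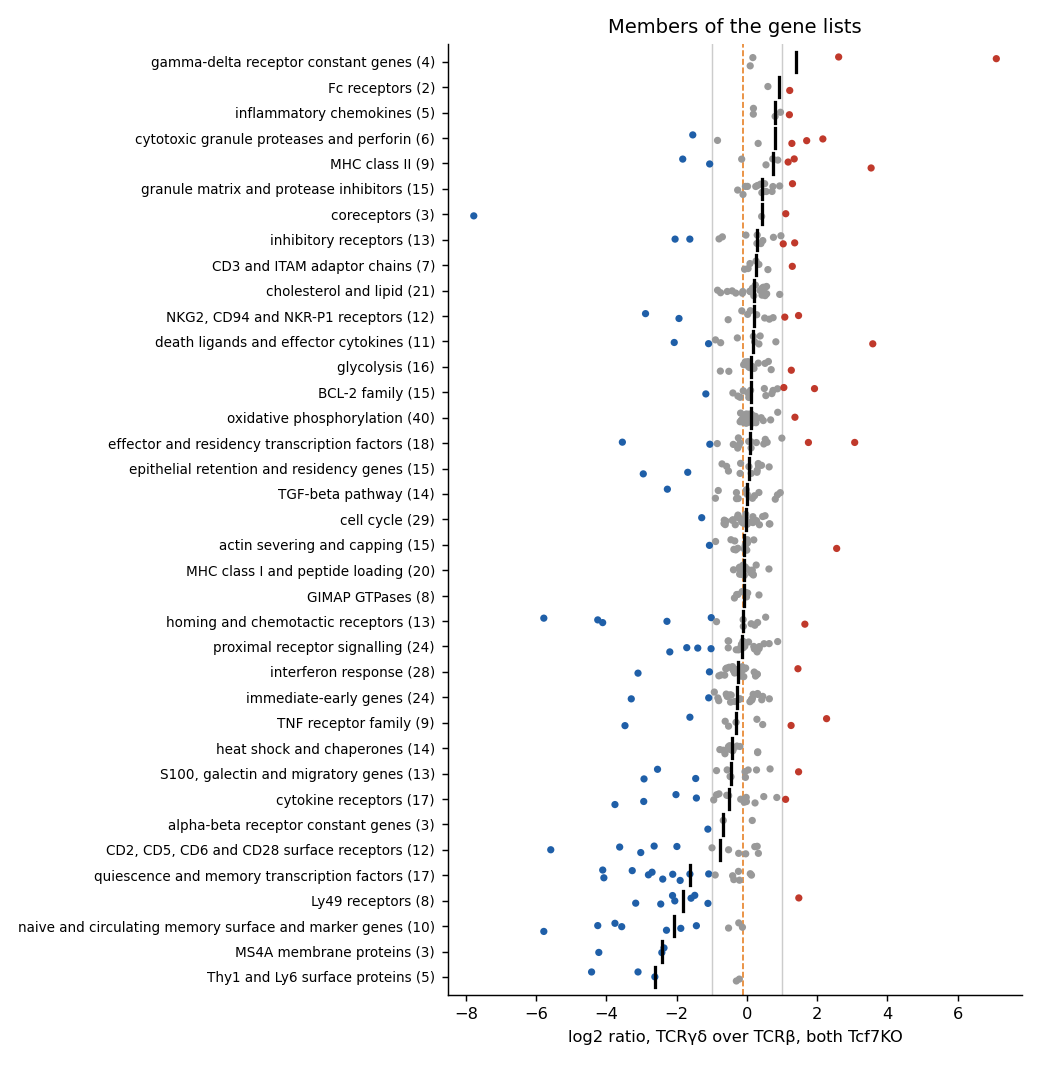
The log2 ratio of TCRγδ over TCRβ Tcf7KO for each measured member of the gene lists, with the number of measured members in brackets. Black bars are list medians, the dashed line is the median of all 11960 genes (-0.10), grey lines mark 2-fold, and the quiescence factors have 10 of 17 points left of the lower line.

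The 2 libraries differed in their mix of cells, so the contrast was repeated within parts of them. Without cells holding a UMI of Ccr7, S1pr1 or Lef1, 186 (1.92%) of 9708 counted genes were higher and 203 (2.09%) lower. Of the 217 higher and 285 lower genes of the whole comparison, 193 and 236 stayed so, and all 30 ranked genes stayed at least 2-fold apart. Against the 5144 TCRβ cells without a Cd8b1 UMI, 200 (2.03%) of 9837 counted genes were higher and 235 (2.39%) lower. Here 202 of the 217 and 254 of the 285 genes stayed so, and all 30 were again at least 2-fold apart. Klf2 was then at -2.07 and Thy1 at -2.42. These TCRβ cells are not shown to lack CD8β, since a gene of this level is missed in many cells. Leaving out TCRγδ cells with a Trac UMI and TCRβ cells with a Trdc UMI kept 428 and 5647 cells. Ms4a4b moved from -4.21 to -2.77 there, Rgs10 from -2.97 to -2.20 and Ms4a6b from -2.36 to -1.75, and the other ranked genes by less than 1.5-fold.

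Cells with a Gzma UMI made up 88.2% of TCRγδ and 32.5% of TCRβ Tcf7KO cells, 1315 and 1882 cells. Between these cells, 96 genes were higher and 98 lower of 8781 counted. Fewer genes reached 100 UMIs there than in the 9988 of the whole comparison. Without that minimum, 100 of the 217 higher and 190 of the 285 lower genes stayed at least 2-fold apart in the same direction. The upper end of the ranking came closer and the lower end changed less. Of the 14 upper genes other than Gzma, 9 were still at least 2-fold apart, with a median of 1.06 in place of 1.63. All 15 lower genes were still at least 2-fold apart, with a median of -2.14 in place of -2.39. The median log2 ratio of all genes was -0.08 in this comparison.

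Single genes show the same. Gzmb stood at 8891 CPM in TCRγδ and 5210 CPM in TCRβ cells with Gzma (0.77, 0.75 to 0.79), against 4182 and 1105 CPM in those without. Klra5 stood at 790 and 461 CPM with Gzma (0.78) and at 784 and 186 CPM without, so in TCRγδ cells its level hardly depended on Gzma. Tnfrsf9 stayed 2.73-fold higher (629 and 230 CPM). Tyrobp stood at 2460 and 1554 CPM (0.66). Among the lower genes, Thy1 stood at 35.8 and 158 CPM in cells with Gzma (-2.14, -2.36 to -1.93), Cd160 at 214 and 595 CPM (-1.48), Cd2 at 21.6 and 153 CPM (-2.82), and Ms4a4b at 6.58 and 117 CPM (-4.15). Tcf7 stood at 11.3 and 72.2 CPM (-2.68). In both libraries Thy1, Cd160, Ms4a4b and Tcf7 were lower in cells with Gzma than in cells without, with Cd160 at 531 CPM in TCRγδ and 875 CPM in TCRβ cells without Gzma. Choosing cells by a Gzma UMI still leaves more Gzma per TCRγδ cell, 22936 against 12733 CPM.

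**Figure D4:**
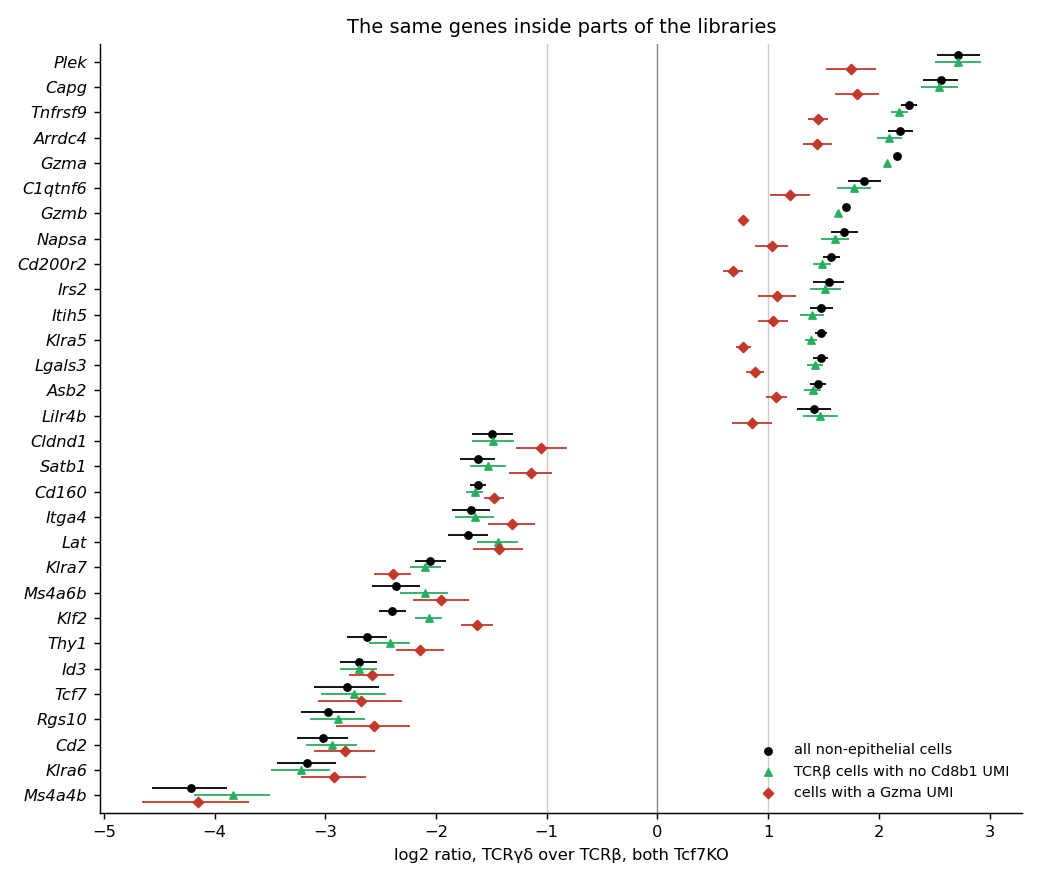
The log2 ratio of TCRγδ over TCRβ Tcf7KO for the 30 ranked genes in all kept cells and in 2 restrictions of the cells, with exact 95% intervals that cover counting error. Red diamonds, cells with a Gzma UMI, lie nearer to 0 than black circles for the upper genes, with Gzmb at 0.77 in place of 1.70, while Ms4a4b stays at -4.15.

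The contrast between sorts could also be set beside that in Tcf7WT, where no library is shared. Of the 217 higher genes, 198 were measured in the Tcf7WT sorts, and 149 of them (75.3%) were at least 2-fold higher there too, against 2.51% of all genes. Of the 285 lower genes, 268 were measured and 126 (47.0%) were lower there too, against 2.19% of all genes. The median ratio of the higher genes was 1.41 in Tcf7KO and 1.42 in Tcf7WT, and that of the lower genes was -1.56 and -0.97. The Tcf7KO medians come from the values that chose these genes.

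Across the 10046 genes with at least 20 UMIs in each library, the sort ratio in Tcf7KO was at least 2-fold above that in Tcf7WT for 24 (0.239%) and at least 2-fold below it for 86 (0.856%). Among those of them that reached 100 CPM in 1 library, ranked by this difference, Thy1 came lowest. Its levels were 39.2 CPM in TCRγδ Tcf7KO, 241 CPM in TCRβ Tcf7KO, 215 CPM in TCRγδ Tcf7WT and 347 CPM in TCRβ Tcf7WT, so TCRγδ Tcf7KO alone stood far below the rest, and the ratio differed by -1.93 (-2.13 to -1.73). Ms4a4b (-1.88) followed, with 11.3, 209, 53.0 and 267 CPM in the same order. Ifng stood at 30.9, 51.7, 133 and 64.2 CPM, lower in TCRγδ than TCRβ cells among Tcf7KO and higher among Tcf7WT. Ccr9, the chemokine receptor for the gut, stood at 119, 109, 250 and 98.3 CPM and was thus nearly level between sorts only in Tcf7KO. Tmem273 stood at 236, 99.8, 123 and 23.5 CPM (-1.15).

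In the other direction the ranked differences were below 2-fold. Capg (0.99) stood at 156, 26.4, 102 and 34.5 CPM, and Klra5 (0.85) at 789, 283, 408 and 263 CPM. Satb1 (0.91) stood at 54.0, 166, 25.6 and 148 CPM, so its deficit in TCRγδ cells was smaller in Tcf7KO. Cd9, Klrb1a and Hist1h2ah differed by 0.66 to 0.79. Whether such differences exceed those between mice cannot be told with 1 library a group.

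**Figure D5:**
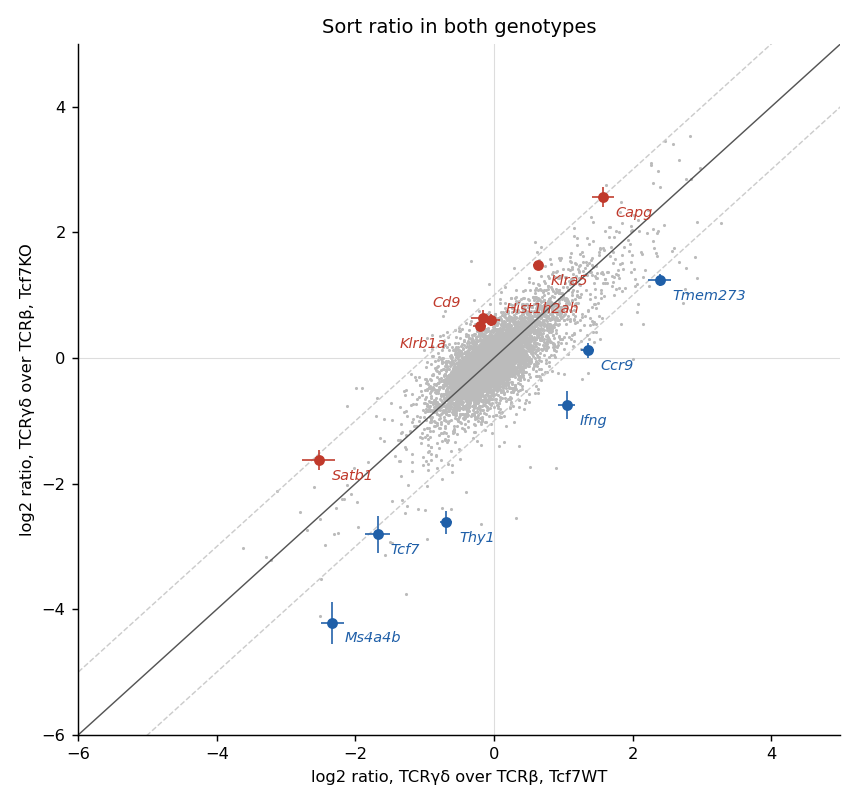
The log2 ratio of TCRγδ over TCRβ in Tcf7KO against that in Tcf7WT for genes with at least 20 UMIs in each of the 4 libraries, receptor segments left out. The solid line marks equal ratios and dashed lines a 2-fold difference between them, bars are exact 95% intervals, and Thy1 (-2.62 and -0.69) and Ifng (-0.75 and 1.05) lie far below the solid line.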

How the data were processed

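Colon TCRγδ+ and TCRβ+ CD8α+ IELs were profiled with a droplet kit that reads transcript 3′ ends, per the labels' protocols, with 1 library per group. The values as deposited are UMI counts, whole numbers for each gene in each cell. Per the submitters' processing notes, Seurat 3.0.0, GRCm38 and mm10 were used, in roles not stated. The aligner and the rule that decides which genes a library lists are not given in the sources used here. Gene symbols were placed with GENCODE M21 (GRCm38), which held 97.7% of the 15301 symbols.

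UMIs were summed over cells and divided by the library's total (CPM). Each log2 ratio carries an exact binomial 95% interval given the gene's summed UMIs, and a share an exact Clopper-Pearson interval. The difference of ratios between genotypes has a normal interval from 4 counts. All cover counting error only, and UMIs are not replicates. The interval calculation was tested on simulated data. No test was made. RefSeq promoters (GRCm38.p6) were given for 27 of the 30 ranked genes.

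Genes were named by size: Tcf7, the 15 highest and 15 lowest ratios among genes with at least 100 UMIs over both libraries and 100 CPM in the higher one, and the 6 highest and 6 lowest differences between genotypes among genes with 20 UMIs in each of the 4 libraries and 100 CPM in 1 of them. Receptor segments, sex and haemoglobin genes, unnamed models and genes with 20% or more of their UMIs in epithelial cells or in 1 cell were left out of the ranking. List members needed 20 UMIs. The members and the 38 gene lists and 7 marker lists were chosen with earlier results of these data known.

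Other scalings tried were the TMM of edgeR 4.0.16, the size factors of DESeq2 1.42.0 and a total without the leading genes. Other choices were each cell weighing the same, thinned cells (to 1699 or 1000 UMIs), other limits for epithelial cells, UMI minimums and folds, and cells left out by Scrublet (scanpy 1.11.5), markers of other types, cycling, mixed receptor genes, Cd8b1, Gzma or, added after seeing the data, Ccr7, S1pr1 or Lef1. Doublets were otherwise kept.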

Additional observations from a re-analysis of the deposited data

Results flagged for a closer look

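Ifng and Klrb1a (a lectin-like NKR-P1 receptor) stood apart between the sorts in opposite directions in the 2 genotypes, each with counting intervals clear of 0, and this difference was not tested because each group is 1 library. The log2 ratio of TCRγδ over TCRβ for Ifng was -0.75 (-0.97 to -0.53) in Tcf7KO and 1.05 (0.92 to 1.18) in Tcf7WT, a difference of -1.79. In TCRγδ cells Ifng stood at 30.9 CPM in Tcf7KO and 133 CPM in Tcf7WT, and in TCRβ cells at 51.7 and 64.2 CPM. For Klrb1a the ratio was 0.51 (0.43 to 0.59) in Tcf7KO and -0.21 (-0.31 to -0.11) in Tcf7WT, a difference of 0.717. Klrb1a stood at 276 CPM in TCRγδ Tcf7KO and at 168 to 194 CPM in the other libraries.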

How the results depend on the processing

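No paired analysis was possible because each group is 1 library and the labels give no replicate numbers. All 30 ranked genes kept their direction in the 15 settings that change cells or scaling (14 for Gzma). Under scaling, the higher genes came to outnumber the lower ones (263 and 244 with TMM, 267 and 241 with DESeq2 size factors). The counts of 217 higher and 285 lower genes still stayed within 1.5 times. They became 435 and 598 at 20 UMIs, 79 and 98 at 500 UMIs, 38 and 97 at 4-fold, and 545 and 830 at 1.5-fold. In cells with a Gzma UMI they became 96 and 98 of 8781 counted. With no cell left out, 449 genes were higher. The 20 epithelial cells of the TCRγδ library hold 6.19% of its UMIs. With an epithelial limit of 3 UMIs, 206 genes were higher and 290 lower. Leaving out cells with markers of other types kept 796 TCRγδ and 3547 TCRβ cells, with 159 genes higher and 235 lower of 8948 counted. Without TCRγδ cells with a Trac UMI and TCRβ cells with a Trdc UMI, 170 were higher and 362 lower of 9604 counted. This leaves 428 TCRγδ cells. Under alternatives chosen after seeing the data, differences of the sort ratio between genotypes moved from 24 to 207 above with no cell left out and from 86 to 51 below with thinned cells. With no cell left out, Ccnb1 (1.28), Ly6a (0.11), Myb (0.64) and S100a6 (1.24) turned to higher in TCRγδ, as did Il6ra (0.52) without mixed cells and H2-Oa (0.25) among cells with Gzma. The causes were not tested. Scrublet called 6 of 1511 and 1 of 5785 cells, too few for a usable doublet call in either library.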

Other observations

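Among the 438 members of the gene lists that had at least 20 UMIs in each library, the sort ratio in Tcf7KO was at least 2-fold below that in Tcf7WT for 21 and at least 2-fold above it for 2, beside 0.856% and 0.239% of all genes with that many UMIs. In 19 members the ratios had opposite signs, with both counting intervals clear of 0. The share of all genes with such opposite signs was not counted, so this number has nothing to be set beside. Lgals1, which encodes galectin-1, stood at 7.57 and 44.1 CPM in the TCRγδ and TCRβ Tcf7KO libraries and 86.0 and 68.9 CPM in Tcf7WT. Cd6 had 24 and 405 UMIs against 133 and 503, and Themis, a scaffold of thymocyte signalling, stood at 7.57 and 19.9 CPM against 22.8 and 17.9 CPM. In each of these genes the lowest of the 4 levels was that of the TCRγδ Tcf7KO library. Fas, below 20 UMIs in 1 library and so outside that count, had 8 and 240 UMIs in Tcf7KO and 144 and 402 UMIs in Tcf7WT. These 4 genes were chosen after their values were seen.

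Cd4 had 70 UMIs in the TCRγδ Tcf7KO library, no more than 1 in any cell, and 88 UMIs in the TCRβ Tcf7KO library, against 6 in TCRβ Tcf7WT. It was found in 2.19% and 0.884% of thinned Tcf7KO cells. The source of these UMIs was not tested. Areg, a growth factor of the epidermal growth factor family, had 31 and 7 UMIs in the Tcf7KO libraries, 15 of the 31 in 1 cell.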
